A study of Mus musculus with 2 samples.

Results

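Enteroendocrine cells are the hormone-secreting cells of the gut epithelium. In the single-cell RNASeq libraries of ileal epithelium they were taken as the cells with at least 1 unique molecular identifier (UMI, a tag that counts each captured transcript once) of 3 or more of 9 genes. The 9 genes were Chga and Chgb (chromogranins), Scg3 and Scg5 (secretogranins), Scgn (secretagogin, a calcium sensor), Pcsk1 and Pcsk1n (a prohormone convertase and its inhibitor), and Neurod1 and Fev (transcription factors). Of 5408 cells, 93 met the rule. They comprised 50 of 3402 cells in the WT library and 43 of 2006 in the Tipe0-/- library. The cells were chosen on measured values, so their levels of the 9 genes describe the choice and carry no test.

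The WT library was from C57BL/6 mice and the Tipe0-/- library from mice lacking TNFAIP8, also called TIPE0, a protein that binds phosphoinositides. All mice were 8 weeks old. Cells of several mice were pooled into 1 library per genotype, so a pool of mice and the genotype cannot be told apart, and no test between genotypes was possible. The labels name no Cre driver and no restriction of the deletion to a tissue. The labels give the tissue as ileal enterocytes, whereas secretory cells were also present, including those described here. The WT library held 38127808 UMIs and the Tipe0-/- library 23897126, and 9 barcode sequences occurred in both libraries, none of them in an enteroendocrine cell.

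Enteroendocrine cells arise from crypt progenitors that pass through a stage of Neurog3 expression. They then express other transcription factors, among them Neurod1 and Fev, and store peptide hormones or serotonin in dense-core granules with chromogranins. Single subtypes are known for the hormones they make. In the ileum these are mainly serotonin-producing enterochromaffin cells, in which Tph1 is the synthetic enzyme and Tac1 encodes substance P. L cells produce proglucagon-derived peptides (Gcg) and peptide YY (Pyy), N cells neurotensin (Nts), I cells cholecystokinin (Cck), S cells secretin (Sct), K cells the incretin Gip, D cells somatostatin (Sst) and X cells ghrelin (Ghrl).

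The promoters of Tac1, Sct, Gcg and Nts are shown because these hormones led many of the cells or held most of their hormone transcripts, and that of Chgb because it was the most abundant rule gene. Each runs from 250 bases before to 50 bases after the start of the gene, 5′ to 3′ on the strand of the gene, from RefSeq on build GRCm38.p6. Tac1 lies at chr6:7554811-7555110 on the plus strand, Sct at chr7:141279084-141279383 on the minus strand, Gcg at chr2:62483604-62483903 on the minus strand, Nts at chr10:102490369-102490668 on the minus strand and Chgb at chr2:132781392-132781691 on the plus strand. Capitals mark the E-box CANNTG, the kind of sequence that basic helix-loop-helix factors such as NEUROG3 and NEUROD1 bind, in the first 4 sequences. In Chgb they mark the cyclic AMP response element TGACGTCA.
Tac1: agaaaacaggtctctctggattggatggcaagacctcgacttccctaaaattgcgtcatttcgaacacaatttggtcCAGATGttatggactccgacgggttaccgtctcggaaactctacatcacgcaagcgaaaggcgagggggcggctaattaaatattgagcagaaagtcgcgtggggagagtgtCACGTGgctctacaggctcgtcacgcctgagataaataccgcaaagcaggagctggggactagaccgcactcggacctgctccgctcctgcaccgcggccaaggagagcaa
Sct: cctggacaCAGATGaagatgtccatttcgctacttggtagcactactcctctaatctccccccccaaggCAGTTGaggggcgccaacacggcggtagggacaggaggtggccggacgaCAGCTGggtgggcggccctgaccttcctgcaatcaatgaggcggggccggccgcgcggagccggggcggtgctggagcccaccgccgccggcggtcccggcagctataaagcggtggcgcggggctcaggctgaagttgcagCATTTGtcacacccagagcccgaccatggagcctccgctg
Gcg: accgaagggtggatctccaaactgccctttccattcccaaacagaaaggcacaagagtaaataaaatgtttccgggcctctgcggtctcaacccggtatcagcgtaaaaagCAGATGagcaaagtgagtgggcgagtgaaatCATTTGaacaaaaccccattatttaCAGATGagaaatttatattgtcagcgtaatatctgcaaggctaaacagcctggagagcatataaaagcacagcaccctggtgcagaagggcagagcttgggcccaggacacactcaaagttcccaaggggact
Nts: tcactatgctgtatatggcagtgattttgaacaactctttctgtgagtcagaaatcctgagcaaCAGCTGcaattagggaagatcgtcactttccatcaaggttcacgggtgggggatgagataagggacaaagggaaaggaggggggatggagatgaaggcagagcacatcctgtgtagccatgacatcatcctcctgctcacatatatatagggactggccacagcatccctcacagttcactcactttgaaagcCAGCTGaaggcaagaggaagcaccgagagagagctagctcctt
Chgb: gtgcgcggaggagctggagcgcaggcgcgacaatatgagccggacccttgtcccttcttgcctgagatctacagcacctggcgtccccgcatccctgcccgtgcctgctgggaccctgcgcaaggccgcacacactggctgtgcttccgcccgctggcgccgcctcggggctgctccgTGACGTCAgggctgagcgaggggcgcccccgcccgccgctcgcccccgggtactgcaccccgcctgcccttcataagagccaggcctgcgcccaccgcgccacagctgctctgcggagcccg
The E-box was present 2 times in Tac1, 4 times in Sct, 3 times in Gcg and 2 times in Nts. The narrower form CAGATG, which overlaps CANNTG, was in Tac1 at -173, in Sct at -242 and in Gcg at -139 and -83, counted from the start of the gene. Both strands were searched in every promoter of the table. Of 32851 promoters of 27025 genes, 72.3% held CANNTG, 17.2% CAGATG, 1.79% TGACGTCA and 13.6% the TATA box TATAAA. Of 18 hormone genes, 16 had an entry, with 22 promoters, of which 20 (90.9%) held CANNTG, 10 (45.5%) CAGATG and 5 (22.7%) TATAAA. TGACGTCA was in 2 of them, those of Sst and Cartpt. Of the 9 rule genes, all with an entry, 5 (55.6%) held CANNTG, none CAGATG and 2 (Chgb and Pcsk1) TGACGTCA. These matches describe the letters only, and no binding was measured.

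The chosen cells carried many transcripts of the genes of granule proteins. Chgb was at 1495 UMIs per 1000000 UMIs (CPM) over the enteroendocrine cells of the WT library against 3.85 in all other WT cells, and at 477 against 3.65 CPM in Tipe0-/-. Chga was at 401 against 1.92 CPM in WT and at 172 against 1.39 in Tipe0-/-. The 2 genes were in 42 and 36 of the 50 WT cells and each in 32 of the 43 Tipe0-/- cells, with at most 148 UMIs of Chgb in a single cell. Neurod1, which drives endocrine differentiation, was in 41 WT and 31 Tipe0-/- cells at 132 and 63.7 CPM, against 0.16 and 0.26 CPM in the other cells. Fev, a factor of serotonin cells, had 30 UMIs in 25 WT cells and 42 UMIs in 22 Tipe0-/- cells. Scgn was found in 22 cells of either library at 60.6 and 62.6 CPM.

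The remaining rule genes were sparser. Scg5, a chaperone of prohormone processing, was in 13 WT and 14 Tipe0-/- cells, and Pcsk1n, which encodes the inhibitor proSAAS, in 11 and 14. Scg3, which sorts cargo into granules, had 8 and 10 UMIs in 7 and 10 cells and none in any other cell of either library. Pcsk1, the convertase itself, was the least restricted. It had 24 UMIs in 19 WT enteroendocrine cells and 12 in 10 Tipe0-/- cells, beside 61 and 50 UMIs in the other cells, a log2 ratio of 4.36 and 2.64. All 5 genes that were given as markers of the type (Chga, Chgb, Neurod1, Scg5 and Pcsk1n) were thus present, and the label of the cells was taken as it stands. Since these genes chose the cells, their presence is no independent check. The hormone genes below were not used by the rule.

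**Figure D1:**
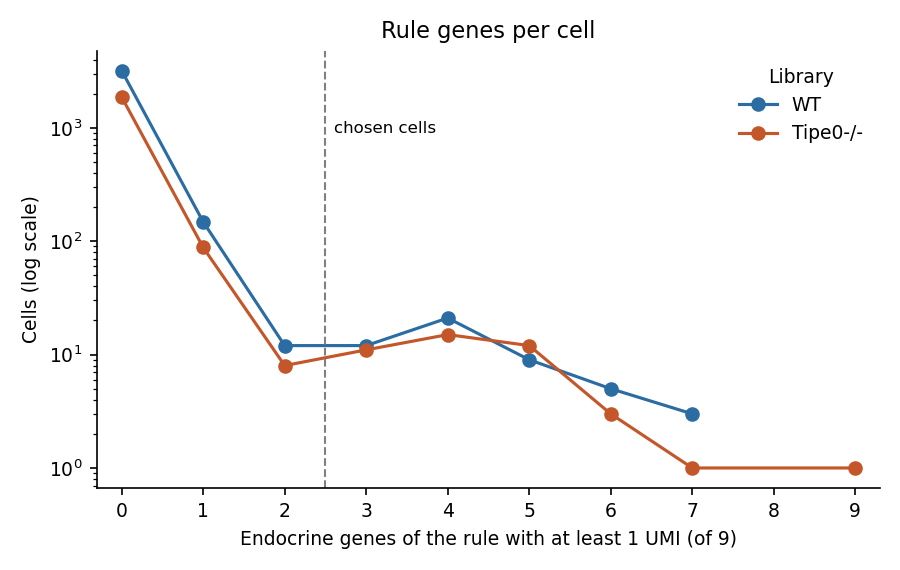
Number of cells (y axis, log scale) by the number of the 9 rule genes with at least 1 UMI (x axis), for the WT and Tipe0-/- libraries, with the dashed line at the limit of the rule. Cell numbers fall to 12 and 8 at 2 genes, stand at 21 and 15 at 4 genes, and 1 Tipe0-/- cell had all 9.

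Most cells of either library had none of the 9 genes (3192 in WT and 1867 in Tipe0-/-), and 148 and 88 had 1 of them. Just outside the rule were 20 cells with exactly 2 of the genes, 12 in WT and 8 in Tipe0-/-. They had a median of 4.5 UMIs of the rule genes (2 to 43), and 13 of the 20 had a leading hormone, defined below. Just inside were 23 cells with exactly 3 genes, 12 and 11 by library, with a median of 8 UMIs (3 to 179), of which 19 had a leading hormone. The values of these sets overlapped widely. One Tipe0-/- cell had all 9 genes.

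The enteroendocrine cells were deeper than the rest. Their median was 13623.5 UMIs per cell in WT (3253 to 43346) and 19177 in Tipe0-/- (3974 to 50643), against 7685 and 7184 UMIs in the other cells. They held a median of 2947 and 4110 detected genes, against 2208.5 and 2240. They accounted for 1.90% of all UMIs in WT and 3.81% in Tipe0-/-. Mitochondrial transcripts took 4.80% and 5.45% of their UMIs, less than the 6.62% and 8.68% of the other cells.

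Enteroendocrine cells made up 1.47% of the WT library (95% Clopper-Pearson interval 1.09 to 1.93%) and 2.14% of the Tipe0-/- library (1.56 to 2.88%). All such intervals cover counting error only. The difference was 0.674 percentage points, with a Newcombe interval from -0.0435 to 1.49 that held 0. When every cell was thinned at random to 3000 UMIs and the rule applied again, 26 WT cells (0.764%, 0.5 to 1.12%) and 13 Tipe0-/- cells (0.648%, 0.346 to 1.11%) met it. The difference then had the opposite sign, -0.116 points (-0.560 to 0.402). Both intervals held 0, so a difference in the share of enteroendocrine cells was not detectable at this depth. The Tipe0-/- share was the higher one under every other form of the rule that was tried. Scrublet marked 8 WT and 4 Tipe0-/- cells as doublets, none of them enteroendocrine, too few for the caller to be taken as working, so no cell was removed. Without all cells among the 5% highest scores in each library, of which 5 and 3 were enteroendocrine, the shares were 1.39% and 2.11%.

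Genes of the endocrine program other than those of the rule were also high in the chosen cells. With at least 50 UMIs in the enteroendocrine cells of both libraries together, 3594 genes were compared with all other cells of the same library. A log2 ratio of at least 1 in both libraries was found for 53 (1.47%) and of -1 or below in both for 51 (1.42%), while the median over all 3594 genes was 0.02 in WT and -0.05 in Tipe0-/-. Of the 53 higher genes, 5 were rule genes, 11 hormones, 5 endocrine transcription factors, 7 granule and exocytosis genes and 4 receptors or channels, and 21 were outside these lists. The minimum of 50 UMIs was counted in the chosen cells, so genes high in them passed it more readily, and the counts per list describe the cells without supporting the lists. The same holds for the counts below of list members with a UMI in the chosen cells, which leave out genes seen only in other cells. The shares of all 3594 genes beside them are an unlike measure. They are per library and over genes with at least 50 UMIs, whereas the list counts need both libraries and include sparser genes.

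Of 22 endocrine transcription factors, 21 had a UMI in the chosen cells of both libraries. For all 21 the level was above that of the other cells in both, against 51.4% (WT) and 44.9% (Tipe0-/-) of all 3594 genes. Pdx1 was at 0. Of the 7 that had 50 UMIs, 5 were higher in both libraries (Insm1, Isl1, Nkx2-2, Etv1 and Peg3), and Foxa1 and Sox4 were not, with a median over the 7 of 6.85. Insm1, a repressor that acts downstream of Neurog3, was at 128 against 0.64 CPM in WT and 86.8 against 1.87 in Tipe0-/- (log2 ratio 7.62 and 5.53), and was found in 64.0% and 72.1% of the cells. Isl1, a LIM homeobox factor of hormone cells, was at 51.0 and 41.7 CPM (log2 ratio 7.39 and 6.40).

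Pax4, Nkx2-2 and Etv1 were among the factors that stood furthest above the other cells. Nkx2-2, a homeobox factor of endocrine differentiation, had 25 UMIs in 18 WT cells and 32 in 18 Tipe0-/- cells (log2 ratio 7.45, 95% interval 6.28 to 8.98, and 6.43, 5.39 to 7.74). Pax4, a paired box factor of hormone cell fate, had 2 UMIs in 2 WT cells and 10 in 6 Tipe0-/- cells, against 0 and 1 UMI in all other cells. Etv1, an ETS factor, had 32 and 44 UMIs in 18 and 13 cells (log2 ratio 7.19 and 6.61). Peg3, a zinc finger gene expressed from the paternal allele, was in 48.0% and 51.2% of the cells. Neurog3, the transient factor of endocrine precursors, had 6 and 17 UMIs (log2 ratio 4.03 and 4.36).

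Of 26 genes of the granule and of exocytosis, 20 had a UMI in the chosen cells of both libraries. The level of 18 was above that of the other cells in both, against 51.4% (WT) and 44.9% (Tipe0-/-) of all 3594 genes. In CPM, Rab27a and Cadps2 were below in both, although the log2 ratio of Cadps2 in WT was 0.01 (-1.06 to 0.80), and Pcsk2 and Syt4 had no UMI in the chosen cells. The 7 with 50 UMIs (Cpe, Cplx2, Ddc, Gch1, Pam, Scg2 and Slc18a1) were all higher, with a median of 2.79. Cpe, the carboxypeptidase that trims prohormones, had 115 UMIs in 30 WT cells and 104 in 34 Tipe0-/- cells (log2 ratio 7.16 and 6.81). The genes furthest above the other cells were Scg2, Resp18, Rab3c and Cadps. Scg2 (secretogranin II) had 33 and 47 UMIs in 14 and 12 cells, and Resp18, a neuroendocrine granule protein, 26 and 16 UMIs in 12 and 7 cells. Rab3c, a vesicle GTPase, had 9 and 18 UMIs against 1 and 1 in all other cells, and Cadps, a priming factor of dense-core granules, 3 and 4 against 0 and 0. By contrast, Ddc, Slc18a1, Pam and Gch1 were also present in other cells. Ddc, which completes serotonin synthesis, was at 121 against 13.4 CPM in WT and 82.4 against 19.8 in Tipe0-/-, and Slc18a1, the vesicular monoamine transporter, at 34.5 against 4.31 and 27.5 against 4.74.

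Among 26 nutrient receptors, other receptors and ion channels, 16 had a UMI in the chosen cells of both libraries. The level of 14 was above that of the other cells in both, against 51.4% (WT) and 44.9% (Tipe0-/-) of all 3594 genes. No UMI was found in the chosen cells for 9 genes, namely Casr, Cckar, Galr1, Glp1r, Kcnj11, Lpar5, Piezo2, Trpa1 and Trpc4. Of the 5 with 50 UMIs, Ffar1, Ffar2, Gfra3 and Cacna1a were higher in both libraries, and the median was 3.05. Ffar1, a receptor for long-chain fatty acids, was at 41.3 against 0.32 CPM in WT and 25.3 against 0.48 in Tipe0-/-. Gfra3, a co-receptor of the GDNF family ligand artemin, was at 56.5 against 0.27 and 37.3 against 0.91 CPM, and was found in 50% and 46.5% of the cells. The 4 genes furthest above the other cells were Kcnb2, a potassium channel, Scn3a, a sodium channel, Gpr119, a lipid receptor, and Cnr1, a cannabinoid receptor. Scn3a had 25 and 22 UMIs in 16 and 12 cells against 4 and 4 in all others, Kcnb2 15 and 7 against 2 and 2, and Gpr119 7 and 9 against 0 and 1. Cnr1 rested on 1 WT cell with 1 UMI and 1 Tipe0-/- cell with 4. The glucose transporter Slc5a1, which enterocytes also use, was lower than in the other cells (log2 ratio -1.25 and -0.92).

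The 9 genes of secretory fate differed less from the other cells. In CPM, 4 were above the other cells in both libraries and 5 (Atoh1, Dll1, Dll4, Gfi1 and Spdef) below. With 0.5 added to each sum, as in the log2 ratios, Gfi1 was above 0 in both libraries and Dll4 in WT, on 2 to 4 UMIs. Of the 4 with 50 UMIs none reached a log2 ratio of 1 in both libraries (median 0.65). Notch1, the receptor through which neighbours repress secretory fate, was at 1.15 and 0.78, Hes6 at 1.03 and 0.34, and Sox9 at 0.82 and 0.43 on the same scale. Hes1, the Notch effector, was at 0.17 (-0.32 to 0.60) in WT and 0.06 (-0.25 to 0.34) in Tipe0-/-, intervals that held 0. Atoh1, the factor that starts the secretory lineage, had 12 UMIs in either library, at 16.5 against 26 CPM in WT and 13.2 against 39.5 in Tipe0-/-. Spdef, a goblet and Paneth factor, was at 12.4 against 19.6 and 6.59 against 15.9 CPM.

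Outside the lists, Rimbp2 stood furthest above the other cells. This gene, which encodes a protein of the presynaptic active zone, was at 38.6 against 0.16 CPM in WT and 36.2 against 0.17 in Tipe0-/- (log2 ratio 7.82 and 7.55) and was found in 17 and 24 cells. Vwa5b2 followed at 7.46 and 6.55, Fam183b at 6.61 and 4.58, and Cxxc4, an inhibitor of Wnt signalling, at 4.95 and 4.18. The intermediate filament gene Vim was at 34.5 against 4.57 CPM in WT and 32.9 against 0.96 in Tipe0-/-. Il17re, a subunit of the IL-17C receptor, was at 3.57 and 2.05, and the fatty acid binding protein gene Fabp5 at 2.27 and 2.12. The other 5 of the 12 named here were Nav1, Cd177, Hoxb8, Aplp1 and Pla2g2f, with log2 ratios from 1.12 to 2.14.

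Of the 6 genes furthest below, 5 were on the marker lists of goblet cells or enterocytes. Zg16, a mucus granule lectin of goblet cells, was at 30.3 against 1444 CPM in WT and 39.5 against 3606 in Tipe0-/- (log2 ratio -5.54 and -6.49). Clca1 and Fcgbp, also of mucus, were at -2.88 and -2.76 in WT and -3.65 and -3.13 in Tipe0-/-. Apoa1, the apolipoprotein of enterocytes, was at 37.2 against 884 CPM in WT and 152 against 914 in Tipe0-/-. Fabp2 was at -2.82 and -2.11, and Slc51a, a subunit of the basolateral bile acid transporter, at -2.85 and -1.97.

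**Figure D2:**
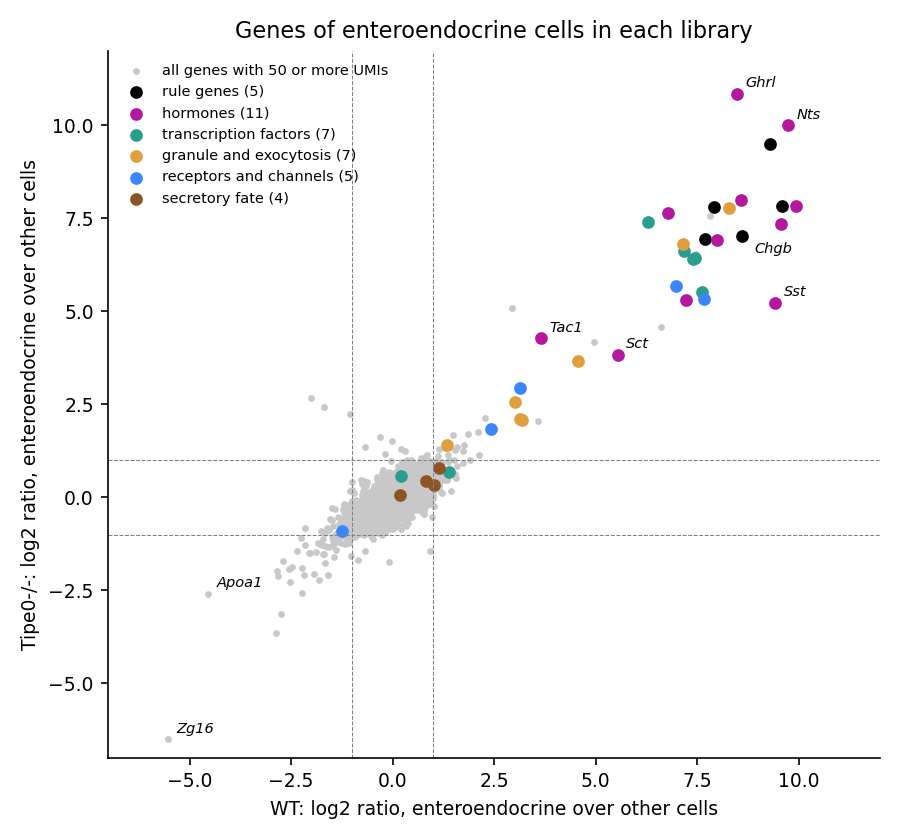
Log2 ratio of enteroendocrine over other cells in WT (x axis) and Tipe0-/- (y axis) for the 3594 genes with at least 50 UMIs, 1 point per gene, coloured by gene list, with dashed lines at ratios of 1 and -1. Hormones, rule genes and most endocrine factors lie far to the upper right, the secretory fate genes near 0, and Zg16 and Apoa1 to the lower left.

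Of 18 hormone genes, 12 had a UMI in the enteroendocrine cells of both libraries. The level of all 12 was above that of the other cells, against 51.4% (WT) and 44.9% (Tipe0-/-) of all 3594 genes. Gast, Penk and Cartpt had no UMI in any cell of either library. The 11 with 50 UMIs were all higher than in other cells in both libraries, with a median log2 ratio of 7.45. Sct, which encodes secretin, was in most cells, with 2177 UMIs in 41 of 50 WT cells and 914 in 28 of 43 Tipe0-/- cells (3001 and 1004 CPM). Tac1 had 250 UMIs in 29 and 132 in 19 cells. Tph1, the enzyme of serotonin synthesis, had 46 UMIs in 16 WT cells and 21 in 12 Tipe0-/- cells.

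The hormones of the N, L and I cells differed in how many cells held them. Nts had 788 UMIs in 6 WT cells and 3331 in 7 Tipe0-/- cells, and Gcg 582 in 15 and 791 in 11. Pyy had 1657 UMIs in 17 WT cells and 262 in 16 Tipe0-/- cells. Cck was in 30 WT cells with 291 UMIs and in 12 Tipe0-/- cells with 75. Nts thus had more UMIs in the Tipe0-/- library, and Pyy and Cck had more in WT.

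The rarer hormones rested on few cells. Sst had 770 UMIs in 6 WT cells and 42 in 2 Tipe0-/- cells, Gip 161 in 3 and 31 in 2, and Ghrl 143 in 10 and 329 in 8. Iapp, which encodes amylin, had 99 UMIs in 7 WT cells and 5 in 4 Tipe0-/- cells. Insl5, a relaxin-family peptide better known from the colon, had 0 UMIs in WT and 9 in 2 Tipe0-/- cells, beside 3 and 4 in other cells. Gal had 1 and 3 UMIs, Ucn3 0 and 1, and Npw none in the enteroendocrine cells beside 5 and 1 in others.

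Each cell was assigned the hormone with the most UMIs, where that was at least 5. Tac1 led in 25 of 93 cells (26.9%, 95% Clopper-Pearson interval 18.2 to 37.1%), 14 in WT and 11 in Tipe0-/-. This order depended on the limit. With a limit of 20 UMIs Gcg led in 10.8% of cells, Sct in 8.60% and Tac1 in 2.15%, and after thinning Gcg led in 9.68%, Sct in 6.45% and Tac1 in 4.30%. At 5 UMIs, Sct led in 16 cells (17.2%; 11 and 5), Gcg in 12 (12.9%; 5 and 7) and Ghrl in 8 (8.60%; 3 and 5). Pyy led in 6 cells (5 and 1), Sst in 5 (4 and 1), Nts in 4 (0 and 4) and Gip in 2, both of WT. No cell was led by Tph1 or by Cck, and 15 cells (16.1%; 6 and 9) had no hormone at 5 UMIs. The Nts-led cells were 9.3% of the Tipe0-/- cells (2.59 to 22.1%) and none of the WT cells, where the interval reaches 7.11%, so that the intervals overlapped. At least 5 UMIs of Nts were found in 4 cells of either library, and the 4 WT cells were led by other hormones.

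The amount of the leading hormone spanned orders of magnitude. In Tac1-led cells it ran from 5 to 24 UMIs with a median of 9. In Gcg-led cells it ran from 14 to 216 (median 83.5), in Pyy-led cells from 29 to 199 (83.5), and in Sst-led cells from 7 to 463 (80). The 4 Nts-led cells had 13, 250, 1469 and 1596 UMIs of Nts, and Nts took 37.0% and 36.9% of all UMIs of the 2 richest. Those 2 cells were shallow, with 3974 and 4328 UMIs in all.

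**Figure D3:**
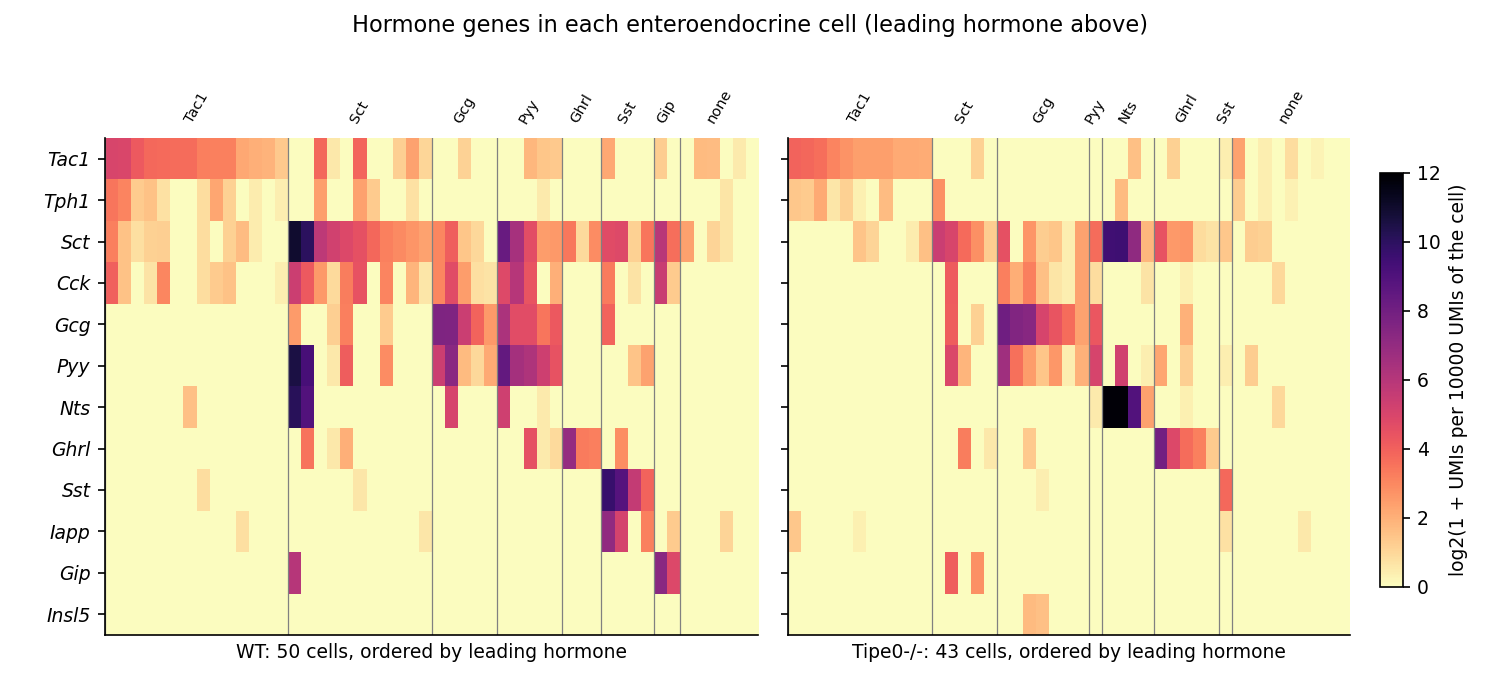
Level of 12 hormone genes in each enteroendocrine cell, relative to the UMIs of the cell on a log2 scale (colour), with WT cells on the left and Tipe0-/- cells on the right, ordered by leading hormone. Sct is spread over most sets, Gcg, Pyy and Cck share cells, and the Tac1-led cells have neither Gcg nor Pyy.

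Most cells with a hormone had more than 1. Of 93 cells, 15 had no hormone at 5 UMIs, 31 had 1, 21 had 2, 8 had 3, 9 had 4 and 9 had 5, so that 47 cells (26 in WT and 21 in Tipe0-/-) had at least 2. Pyy and Cck were present in all 12 Gcg-led cells and Sct in 10 of them. All 6 Pyy-led cells had Gcg and Sct. Every one of the 8 cells with at least 5 UMIs of Nts also had at least 5 of Sct, and so did 18 of the 21 cells with at least 5 of Cck, the other 3 having fewer. In WT, 2 Sct-led cells carried large amounts of 3 hormones, 1 with 823 UMIs of Sct, 620 of Pyy and 462 of Nts, and 1 with 602, 362 and 282. Hormones took 46.4% and 21.6% of all UMIs of these cells.

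The Tac1-led cells had none of the L cell hormones. Tph1 was present in 17 of 25 (10 of 14 in WT and 7 of 11 in Tipe0-/-), and neither Gcg nor Pyy in any of the 25. By definition, a cell with more UMIs of Gcg or Pyy than of Tac1 was not Tac1-led. Of all 30 cells with at least 5 UMIs of Tac1, 1 had at least 5 of Gcg and of Pyy, and it was led by Pyy. All 5 cells with at least 5 UMIs of Tph1 had at least 5 of Tac1. Chgb was present in all 25 Tac1-led cells at 10 to 100 UMIs, with a median of 37.5 in WT and 23 in Tipe0-/-, and Chga at 1 to 35. Compared with the other 68 cells over both libraries, Tph1 was at a log2 ratio of 2.07 (1.34 to 2.84) and Slc18a1 at 1.85. As Tac1 defines this set and Chga and Chgb chose the cells, the levels of these 3 genes are no finding.

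In other sets too, some genes beside the leading hormone were higher than in the remaining cells. In the 18 cells led by Gcg or Pyy, Etv1 was at 2.49 over the remaining cells (1.80 to 3.22) and was present in 15 of 18 against 16 of 75. In Sct-led cells Upp1, a uridine phosphorylase, was at 3.76 (2.70 to 5.02) and present in 10 of 16 against 10 of 77, with Ly6a, a surface antigen, at 2.30 and Cck at 1.87. The set pools both libraries, and Cck was in 9 of its 11 WT cells (120 UMIs) but in 1 of its 5 Tipe0-/- cells (28 UMIs). Among the Sct-led cells Slc6a19, a neutral amino acid transporter, was at 1.95, Aoc1, a diamine oxidase, at 1.83, and Cdhr2, a brush border cadherin, at 1.61. Enterocyte markers took 24.0%, 19.4%, 10.1% and 8.56% of the UMIs in 4 of the 16 cells, and their part in these ratios was not tested. In Ghrl-led cells Isl1 was at 1.85 (7 of 8 cells against 26 of 85) and Cdkn1a, a cell cycle inhibitor, at 2.23 (8 of 8 against 33 of 85). In the 5 Sst-led cells Iapp was at 8.12 (7.17 to 9.46) and present in 4 of 5 against 7 of 88. A single WT cell held 74 of the 96 Iapp UMIs of these 5 cells, so the size of the ratio rests largely on it. All 8 Ghrl-led and all 5 Sst-led cells had Sct. These genes were picked for their ratios in these sets, and no test was made.

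Of the 15 cells without a leading hormone, 14 had Chga and 12 Chgb, genes of the rule that chose them. Neurog3 was present in 14 of all 93 enteroendocrine cells, 5 in WT and 9 in Tipe0-/-. Of the 14, 6 had no leading hormone (1 in WT and 5 in Tipe0-/-) and 4 were led by Ghrl (2 in either library). In all other cells of the libraries, 19 had Neurog3 (9 and 10), with at most 5 UMIs.

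For most hormones with many UMIs, the larger part of the UMIs of the library lay in the enteroendocrine cells. They held 94.4% of all Nts UMIs of the WT library and 97.6% of the Tipe0-/- library, 93.7% and 86.8% of Pyy, 88.2% and 91.5% of Cck, 83.6% and 84.0% of Tph1 and 68.2% and 88.9% of Gcg. For Sst the shares were 93.1% and 60%. Single cells held 60.1% (WT) and 97.6% (Tipe0-/-) of the Sst UMIs of the enteroendocrine cells, so the Tipe0-/- share rests on 1 cell. For Gcg, 4 WT and 5 Tipe0-/- cells outside the rule had at least 5 UMIs. After thinning to 3000 UMIs per cell, no hormone other than Sct and Tac1 was in more than 0.713% of the other cells.

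Among hormones with many UMIs, Sct and Tac1 had most of theirs outside the enteroendocrine cells. Only 47.5% of the Sct UMIs of the WT library and 36.1% of the Tipe0-/- library were in enteroendocrine cells, and 19.5% and 43.4% of those of Tac1. After thinning, Sct was in 60% and 46.5% of enteroendocrine cells and in 14.1% and 14.6% of the others (29.1% and 29.5% before thinning). Among the others, cells in which goblet markers took at least 5% of the UMIs had Sct in 48.3% (n = 350) in WT and 59.8% (n = 234) in Tipe0-/-. Cells rich in Paneth markers by the same measure had it in 27.9% and 23.2%, and the rest in 9.32% and 8.06%. The level of Sct was 312 and 368 CPM in the goblet-rich cells, 84.1 and 77.2 in the Paneth-rich cells and 40.2 and 41.5 in the rest. Median depth was 6159.5 and 5857.5 UMIs in the goblet-rich cells, 16567.5 and 23104.5 in the Paneth-rich cells and 7428 and 7029 in the rest. The goblet-rich cells were thus shallower than the rest and the Paneth-rich cells deeper.

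Tac1 followed the goblet markers too. It was in 42.0% and 25.6% of thinned enteroendocrine cells, in 25.7% and 7.69% of goblet-rich cells, and in 5.13% and 1.36% of cells rich in neither. At least 5 UMIs of Tac1 were found in 39 WT (1.16%) and 4 Tipe0-/- (0.204%) of the other cells. For Sct these were 103 (3.07%) and 92 (4.69%). Free RNA can give a UMI in cells that do not express a gene. The share in cells rich in neither marker list is given for comparison. It is not a measured background, since free RNA was not estimated and some of these cells may express the gene.

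Markers of other cell types were counted in the same cells. Enterocyte markers took 2.69% of the UMIs of WT enteroendocrine cells against 7.31% of other cells, and 2.0% against 4.81% in Tipe0-/-. Reg3b was the most abundant of them (14536 and 10463 CPM), and Fabp1 was at 0 in WT. Goblet markers took 0.92% against 1.86% and 0.97% against 2.09%, all 10 present with Spink4 first. Tuft markers were at 70.3 against 165 CPM and 64.8 against 88.4 (9 of 10 present, Gfi1b at 0), and lymphocyte markers at 23.4 against 123 and 8.78 against 30.5, with Cd3e, Cd3g and Cd8a at 0. In summed UMIs each of these lists was lower than in the other cells. The median share of goblet markers per cell was higher, at 0.0693% against 0.0594% in WT and 0.215% against 0.0552% in Tipe0-/-.

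Stem cell markers were higher, at 1094 against 558 CPM in WT and 1130 against 837 in Tipe0-/-, all 10 present and Slc12a2 most abundant. Cycling markers were at 2061 against 1760 and 2024 against 2184, all 11 present and Hmgb2 first. Markers of enteric neurons and glia were at 13.8 against 2.78 and 20.9 against 2.44 CPM, a log2 ratio of 2.37 (1.21 to 3.25) in WT and 3.12 (2.26 to 3.87) in Tipe0-/-. Of the 10 genes 4 were present in WT and 5 in Tipe0-/-, with Ret most abundant (6.89 and 9.88 CPM), and Stmn2, S100b, Sox10 and Gfap were at 0 in both libraries.

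Paneth markers, unlike those of goblet and tuft cells, were above the level of the other cells. They took 7.33% of the UMIs of enteroendocrine cells against 5.55% in WT (log2 ratio 0.40) and 6.83% against 3.60% in Tipe0-/- (0.92). All 9 markers of the list that the files hold were present, with the defensin Defa24 first at 42531 and 40249 CPM. These counts came from few cells. Paneth markers took at least 5% of the UMIs in 16 cells (6.16 to 34.1%) and goblet markers in 1 (12.8%), together 9 in WT and 8 in Tipe0-/-, whereas 73 of the 93 cells had less than 1% of Paneth markers. The 17 cells had a median of 31856 UMIs against 13511 in the remaining 76, and 6 of them were led by Tac1 (5 in WT and 1 in Tipe0-/-). In the remaining cells Paneth markers took 0.28% and 0.43%. Without the 17 cells the shares of enteroendocrine cells were 1.21% and 1.74%. Whether the 17 droplets held a second cell was not tested. Defensin genes are near-identical copies that share reads, so their single counts are uncertain.

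**Figure D4:**
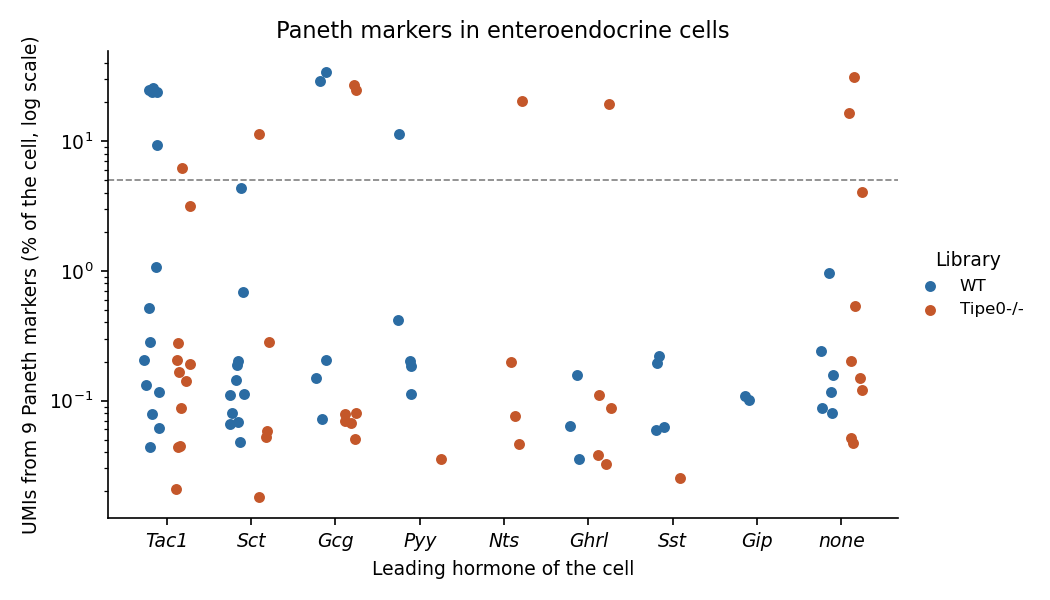
Percent of the UMIs of each enteroendocrine cell that came from 9 Paneth markers (y axis, log scale) by leading hormone (x axis), 1 point per cell, coloured by library, with the dashed line at 5%. In 16 cells the share was 6.16% or more, and these were spread over 7 of the 9 sets.

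Tnfaip8, the deleted gene, was near the limit of detection in enteroendocrine cells. It had 7 UMIs in 4 WT cells (9.65 CPM) and 2 UMIs in 2 Tipe0-/- cells (2.20 CPM), a log2 ratio of -1.91 whose interval from -5.44 to 0.26 held 0. In the other cells it was at 9.76 against 2.39 CPM (-2.02, -2.46 to -1.62). The position of the deletion relative to the counted 3' end was not given in the sources used here, so these counts do not show how complete it was.

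The Tipe0-/- and WT enteroendocrine cells were compared gene by gene to ask what loss of TIPE0 goes with in this lineage, with 1 library per genotype and no replicate check. Of 1830 genes with at least 100 UMIs, 14 (0.765%) were at least 2-fold higher in Tipe0-/- and 27 (1.48%) at least 2-fold lower. The median log2 ratio was 0.03, with 54.2% of the genes above 0. Of the 10 hormones that passed the minimum, 1 was higher and 7 were lower (median -1.93).

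Nts was the hormone that was higher, at 3658 CPM in Tipe0-/- against 1086 in WT (log2 ratio 1.75, 95% counting interval 1.64 to 1.87). Single cells held 47.9% and 58.6% of these UMIs. Without the richest cell of either library the ratio was 2.08. The richest Tipe0-/- cells held 1596 and 1469 of 3331 UMIs and the richest WT cells 462 and 282 of 788. The ratio thus rests on few cells, and cells with Nts numbered 7 in Tipe0-/- and 6 in WT. Among the other cells it was 1.48 (0.95 to 2.04), on 47 UMIs in WT and 81 in Tipe0-/-. Ghrl was at 0.87, with 361 against 197 CPM, and Gcg at 0.11 (-0.04 to 0.27), an interval that held 0.

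Hormones that were lower in Tipe0-/- included Pyy, at 288 against 2284 CPM (-2.99, -3.18 to -2.80), and Cck, at 82.4 against 401 (-2.28, -2.67 to -1.91). Without the richest cell of either library these were -2.84 and -2.73. The richest WT cells held 620 and 362 of the 1657 WT UMIs of Pyy, so its ratio rests largely on few WT cells. Cells with Pyy numbered 17 in WT and 16 in Tipe0-/-. Sst and Iapp were both at -4.51 and Gip at -2.69, on 2 to 7 cells a library. A single WT cell held 74.7% of the Iapp UMIs, and single cells held 60.1% and 97.6% of those of Sst. Without the richest cell 1 UMI of Sst was left in the Tipe0-/- cells. Sct was at -1.58, and at -0.92 as a mean over cells. Tac1 was at -1.25. Tph1, which had fewer than 100 UMIs and is not among the 10 hormones counted, was at -1.44 (-2.28 to -0.69). In the other cells of the Tipe0-/- library Tac1 was at -1.88 and Cck at -1.69. By contrast, Sct was there at 0.13 (0.04 to 0.22), Gcg at -0.75 (-1.10 to -0.41) and Ghrl at -1.49 (-3.63 to -0.04).

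The rule genes chose the cells in each library, and the libraries differed in depth, so their ratios are a description of the choice. Chgb was at 477 against 1495 CPM (-1.65), Chga at 172 against 401 (-1.22) and Neurod1 at 63.7 against 132 (-1.05), and Scgn at 62.6 against 60.6 (0.04). On the list of other granule and exocytosis genes 2 had 100 UMIs, and neither was 2-fold higher or lower.

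Of all genes found in at least 10 of the cells, those with the highest ratios beside Nts were Apoa1 at 2.0 (1.42 to 2.68), the defensin-family gene AY761184 at 1.66, Fabp2 at 1.38, and Naaladl1 and B4galnt1, which encode a peptidase and an enzyme of ganglioside synthesis, both at 1.31. In the other cells the ratios were 0.05 for Apoa1, 0.66 for Fabp2, 0.98 for Naaladl1, 0.24 for B4galnt1 and -0.35 for AY761184. Apoa1 was in 17 enteroendocrine cells of either library, and a single cell held 50.7% of its UMIs in those of Tipe0-/-. For AY761184, Fabp2, Naaladl1 and B4galnt1 the richest Tipe0-/- enteroendocrine cell held 33.7%, 29.7%, 26.6% and 6.82%. Without the 17 cells rich in Paneth or goblet markers AY761184 was at 0.39. The lowest were Iapp, Pyy and Cck with Ifitm3 (-2.52), an interferon-induced membrane protein, AA467197 (-2.29) and Cd177 (-2.13). These last 3 were also lower in the other cells of the Tipe0-/- library, at -1.70, -1.94 and -1.97.

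**Figure D5:**
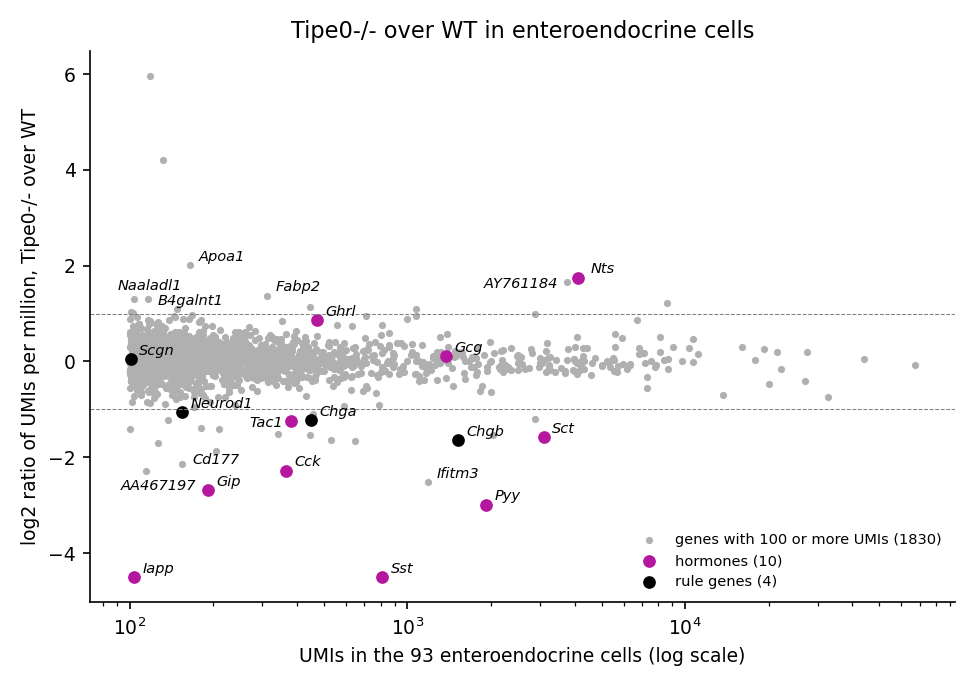
Log2 ratio of Tipe0-/- over WT (y axis) against UMIs in the 93 enteroendocrine cells (x axis, log scale) for 1830 genes, 1 point per gene, with dashed lines at 1 and -1. Most genes lie near 0, Nts at 1.75 and Pyy at -2.99, and the unlabelled points at 5.96 and 4.21 are the hemoglobin genes Hba-a1 and Hbb-bs, of which 1 cell held most UMIs.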

How the data were processed

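The authors prepared 1 library per genotype with the 10x Single Cell 3' v2 chemistry, aligned reads to mm10 with Cell Ranger, per the labels, and deposited raw UMI counts of 27998 genes for each retained cell. The labels name collagenase and dispase for digestion, whereas the methods of the study name DNase I and Dispase. No normalization or cell filter was applied here, and 3' UMIs were not scaled by length. Summed counts were divided by the total of their cells (CPM), with 0.5 added to each sum for log2 ratios, and given exact 95% Poisson or binomial intervals. Thinning drew 3000 UMIs per cell. The floors were 50 UMIs (chosen over other cells) and 100 UMIs (Tipe0-/- over WT). Cells are not replicates, so no p-value was made. Named genes were the rule genes, all hormones, the 4 highest of each list, the 12 highest and 6 lowest outside the lists, and the 6 highest and 6 lowest between genotypes. Others were chosen after their values were seen. Some listed genes are not reported here. The members and lists were chosen with earlier results of these data known. The ratios and their intervals were tested on simulated sums of counts without differences between cells, so that check does not cover the spread between cells. Python 3.11.15, numpy 2.4.6, scipy 1.17.1, pandas 2.3.3, Scanpy 1.11.5 and matplotlib 3.10.9 were used.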

Additional observations from a re-analysis of the deposited data

How the results depend on the processing

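Each genotype had 1 pooled library, so every interval covers counting error only. No paired analysis was possible because each group had 1 library. Leaving out cells rich in Paneth or goblet markers, and the richest cell of a library, were added after the data were examined. The cause of a change was not tested unless stated. The share of enteroendocrine cells was 0.764% (WT) and 0.648% (Tipe0-/-) after thinning, a difference of -0.116 points, 1.03% and 1.40% with 3 of the 5 markers, and 0.676% and 0.897% with 2 UMIs of each gene. Genes higher and lower than in other cells numbered 147 and 116 with a minimum of 20 UMIs, 12 and 13 with 200, and 21 and 11 after thinning, which leaves fewer genes above the minimum. Without the 17 marker-rich cells they were 56 and 38, of which 44 and 21 were among those reported. With a leading hormone of 20 UMIs, and after thinning, Tac1 led in 2.15% and 4.30% of cells, Sct in 8.60% and 6.45%, and none in 59.1% and 57.0%. After thinning, a UMI was found in 14.0% (WT) and 6.98% (Tipe0-/-) of cells for Tph1, 42.0% and 25.6% for Tac1, and 60% and 46.5% for Sct, in 34.0% of WT cells for Cck and in 2.33% of Tipe0-/- cells for Iapp. Without the richest cell, the log2 ratio of Tipe0-/- over WT in the whole libraries was 0.56 for Gcg, -1.70 for Pyy, 2.96 for Nts, -1.74 for Cck and -0.0854 for Sct. The enteroendocrine cells then held 62.9% of WT Gcg UMIs, 87.4% of Nts, 36.0% of Sct, 84.9% of Gip, 84.3% of Sst, 77.0% of Ghrl and 42.4% of Iapp, and in Tipe0-/- 27.2% of Sct, 62.5% of Gip, 3.45% of Sst and 50% of Iapp. In Tipe0-/- over WT, 50 genes were higher and 42 lower with a minimum of 50 UMIs, 263 and 162 with 20, and 26 higher as a mean over cells. With 4 or more rule genes 18 were higher and 30 lower, but 30.5% of all genes were above 0 in place of 54.2%. Without the 17 marker-rich cells 21 were higher and 25 lower, of which 7 and 23 were among those reported. Of single named genes between genotypes, 10 values moved (Neurod1, Scgn, Sct, B4galnt1, Gcg, Ghrl and AY761184) and 166 did not. Among genes with at least 100 UMIs, no named ratio past 2-fold changed its sign under the alternatives run. Ucn3, with 1 UMI in all, is not counted.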

Other observations

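Genes in this part were chosen after their values were seen. Several genes of antigen presentation were lower in Tipe0-/- than in WT enteroendocrine cells. The MHC class II genes Cd74, H2-Aa, H2-Ab1 and H2-Eb1 were at log2 ratios of -1.55, -1.54, -1.66 and -1.65, beside -1.26, -1.53, -1.30 and -1.29 in all other cells. Psmb8, an immunoproteasome subunit, was at -1.52 beside -1.26. The other immunoproteasome subunits Psmb9 and Psmb10 were at -0.67 and -0.05, and the class I genes H2-D1, H2-K1 and B2m at -1.09, -0.90 and -0.50 in enteroendocrine cells. Reg4, a lectin of secretory cells, was at 1.14 in enteroendocrine cells and at -0.80 in the others.

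Hemoglobin transcripts (Hba-a1, Hba-a2, Hbb-bs and Hbb-bt) numbered 341 UMIs in Tipe0-/- enteroendocrine cells, of which 333 lay in 1 cell, against 7 in WT. Other cells held 1192 in 164 WT cells and 1613 in 120 Tipe0-/- cells. The high ratio of Hba-a1 between the genotypes (5.96) thus rests on 1 cell.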
